A study of Homo sapiens with 8 samples.

Results

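The splicing factors described here are the heterogeneous nuclear ribonucleoproteins (hnRNPs), the serine- and arginine-rich splicing factors (SR proteins), the SF3A and SF3B subunits of the U2 small nuclear ribonucleoprotein, and the U2AF proteins. Their probe sets were taken from the array's annotation wherever a probe set carried a single gene symbol starting with HNRNP, SRSF and a digit, SFRS and a digit (the older name), SF3A or SF3B and a digit, or U2AF. This gave 146 of the 54613 probe sets that are not controls, for 43 of the 19775 gene symbols on the array, and 0 of them matched by an older name alone. The hnRNPs held 72 probe sets for 19 genes, the SR proteins 43 for 10, SF3B 13 for 6, SF3A 7 for 3 and U2AF 9 for 3. The remaining 2 probe sets belong to the pseudogene HNRNPA3P1 and to HNRNPD-DT, a transcript divergent from HNRNPD. Another 14 probe sets list several genes with such a name and were not used.

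RNA came from H1, an established line of human embryonic stem cells, kept on irradiated mouse embryonic fibroblasts (MEF) and sorted by forward and side scatter into a small and a large fraction. The labels give no genetic change and no agent for either fraction. Both are the same line, and the sort gate is the only difference that the labels name. Each fraction was collected in 4 repeats, labelled as independent biological repeats, and the RNA of each repeat of a fraction went onto 1 array of its own. Whether a small and a large array of equal number came from the same sort is not stated. The sort separates cells by scatter and not by a molecular marker, and all RNA is from 1 line. Each array received the same amount of RNA, so a value is a level relative to the RNA measured, and in such bulk samples fewer cells of a type and less RNA per cell cannot be told apart.

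An hnRNP binds the nascent transcript and can block or favour nearby splice sites, while an SR protein binds exonic enhancers through an RNA recognition motif and recruits the splicing machinery through its arginine- and serine-rich tail. U2AF reads the polypyrimidine tract and the terminal AG of an intron, and SF3A and SF3B hold the U2 particle on the branch point. Many genes of SR proteins and hnRNPs are known to regulate themselves: their own protein promotes a transcript with a premature stop codon or a retained intron, which is degraded or kept in the nucleus. Probe sets of 1 such gene can therefore report different transcripts, and every probe set is treated separately below. The sources used here do not say which part of a transcript a probe set binds.

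Promoter sequences are shown first for 3 of the 4 genes with a called probe set, SRSF7, HNRNPD and HNRNPA2B1. RefSeq's promoter table (GRCh38.p14) held 40 of the 43 symbols, and HNRNPA1, the other gene with a called probe set, was not among them. The 250 bases before the annotated start are given 5′ to 3′ for SRSF7 (chr2:38751495-38751744, minus strand), HNRNPD (chr4:82373992-82374241, minus strand) and HNRNPA2B1 (chr7:26200747-26200996, minus strand), with capitals for a match on either strand to the CCAAT box (CCAAT), the TATA box (TATAAA), the GC box (GGGCGG) or an ETS factor motif (CCGGAAG).
SRSF7: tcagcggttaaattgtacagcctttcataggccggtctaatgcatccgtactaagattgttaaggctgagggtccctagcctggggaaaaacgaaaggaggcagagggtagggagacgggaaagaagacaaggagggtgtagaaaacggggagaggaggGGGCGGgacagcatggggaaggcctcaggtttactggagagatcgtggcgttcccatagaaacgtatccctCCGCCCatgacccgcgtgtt
HNRNPD: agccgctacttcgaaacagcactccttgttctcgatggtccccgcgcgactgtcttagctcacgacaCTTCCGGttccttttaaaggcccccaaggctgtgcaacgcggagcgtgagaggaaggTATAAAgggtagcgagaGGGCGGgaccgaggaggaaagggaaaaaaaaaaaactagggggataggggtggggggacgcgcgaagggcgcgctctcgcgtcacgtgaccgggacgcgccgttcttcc
HNRNPA2B1: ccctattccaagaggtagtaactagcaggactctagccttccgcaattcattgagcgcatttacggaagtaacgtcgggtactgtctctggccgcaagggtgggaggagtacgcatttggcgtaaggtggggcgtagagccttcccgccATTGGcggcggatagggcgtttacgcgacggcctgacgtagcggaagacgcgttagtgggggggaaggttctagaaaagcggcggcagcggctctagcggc
In these 250 bases SRSF7 has GC boxes, HNRNPD has an ETS motif, a TATA box and a GC box, and HNRNPA2B1 has a CCAAT box. Over the 39 protein-coding genes matched, 12 promoters (30.8%) held the ETS motif, against 8.82% of all 27305 promoters in the table, and 26 (66.7%) held the GC box, against 42.3% of all. The CCAAT box was in 38.5% of them and in 33.0% of all, and the TATA box in 12.8% and in 11.1% of all. The 27305 promoters were not limited to protein-coding genes, so these shares compare unlike sets. Motifs were searched for separately, each on both strands, and a match describes the letters only.

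Deposited intensities had 75th percentiles between 41.9 and 106 units, a 2.52-fold range over the 8 arrays, so the arrays were quantile-normalized on the log2 scale. The log2 difference between the 3 prime and the 5 prime control probe sets of GAPDH and ACTB, which grows as RNA is shorter, was 2.44, 1.94, 2.66 and 2.42 on small arrays 1 to 4, against 2.91, 1.85, 1.83 and 1.89 on large arrays 1 to 4 (exact two-sided permutation p = 0.4 over 70 assignments, whose smallest p is 0.0286). Large array 1 was the highest of all and the other large arrays were below every small array. Large array 1 correlated at 0.9207 to 0.9227 with the other large arrays, which correlated at 0.9384 to 0.9555 among themselves. Small array 3 correlated best with large array 3 (0.9443), and these 2 also had the highest 75th percentiles (104 and 106). Why they resemble each other was not tested. The calls are given with and without large array 1 and small array 3. The stem cell markers NANOG and SOX2 were clearly detected, with NANOG between 10.58 and 10.77 on small and between 10.65 and 10.81 on large arrays. Of 12 stem cell markers 11 were tested and 1, PODXL, was lower (log2 difference -0.98 ± 0.15 SE, adjusted p = 0.00754). Of the markers of other cell types, 23 were tested and none was called. Their summed linear intensity per array was 1210 to 2730 on small and 1250 to 2690 on large arrays for neural markers, a sum carried by TUBB3, and 156 to 402 on small and 106 to 277 on large arrays for endoderm markers, of which FOXA2 and GATA4 were too dim to test. All 4 tested endoderm markers had positive differences, with a median of 0.71 and TTR at 1.33 ± 0.51 SE (adjusted p = 0.208). Among the 5 tested neural markers PAX6 was at 1.77 ± 0.52 (adjusted p = 0.106) and STMN2 at 1.15 ± 0.48 (adjusted p = 0.247). The large mean of STMN2, 3.36, is under 3.62, the mean over all arrays above which a probe set was tested. STMN2 was thus tested only through the small arrays. PAX6 was at 5.63 on large array 1, inside the small values, and at 3.22, 2.74 and 3.24 on large arrays 2 to 4. The summed intensity was 1090 to 2060 against 1410 to 2870 for fibroblast, 185 to 230 against 196 to 281 for trophoblast and 54.1 to 69.2 against 50.1 to 68.5 for blood markers, small arrays before large. The 8 fibroblast markers had a median difference of -0.09. The lowest was COL1A1 at -0.59 ± 0.28 (adjusted p = 0.31) and the highest POSTN at 0.39 ± 0.57 (adjusted p = 0.788). The part of these cells in the results below was not tested.

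The comparison asked which splicing factor transcripts differ between small and large stem cells. Of the 146 probe sets, 129 were bright enough to be tested, at least 1 for each of the 43 symbols. At an adjusted p under 0.05 over all 32768 tested probe sets, 4 of the 129 were lower in small cells (3.1%) and 0 were higher. Among all tested probe sets 1.5% passed, 1.3% lower and 0.198% higher. The 4 belong to SRSF7, HNRNPD, HNRNPA2B1 and HNRNPA1, and for the first 3 of these genes a brighter probe set of the same gene did not pass. No other tested probe set passed, those of SF3A, SF3B and U2AF included. All 4 calls are lost with the deposited scaling or median centring, and also without the variance trend. Without large array 1 and small array 3 all 4 were still called, at -1.19 for SRSF7, -1.64 for HNRNPD, -0.72 for HNRNPA2B1 and -0.86 for HNRNPA1 (adjusted p between 0.00962 and 0.019), and the members called numbered 7, with 6 lower and 1 higher.

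**Figure D1:**
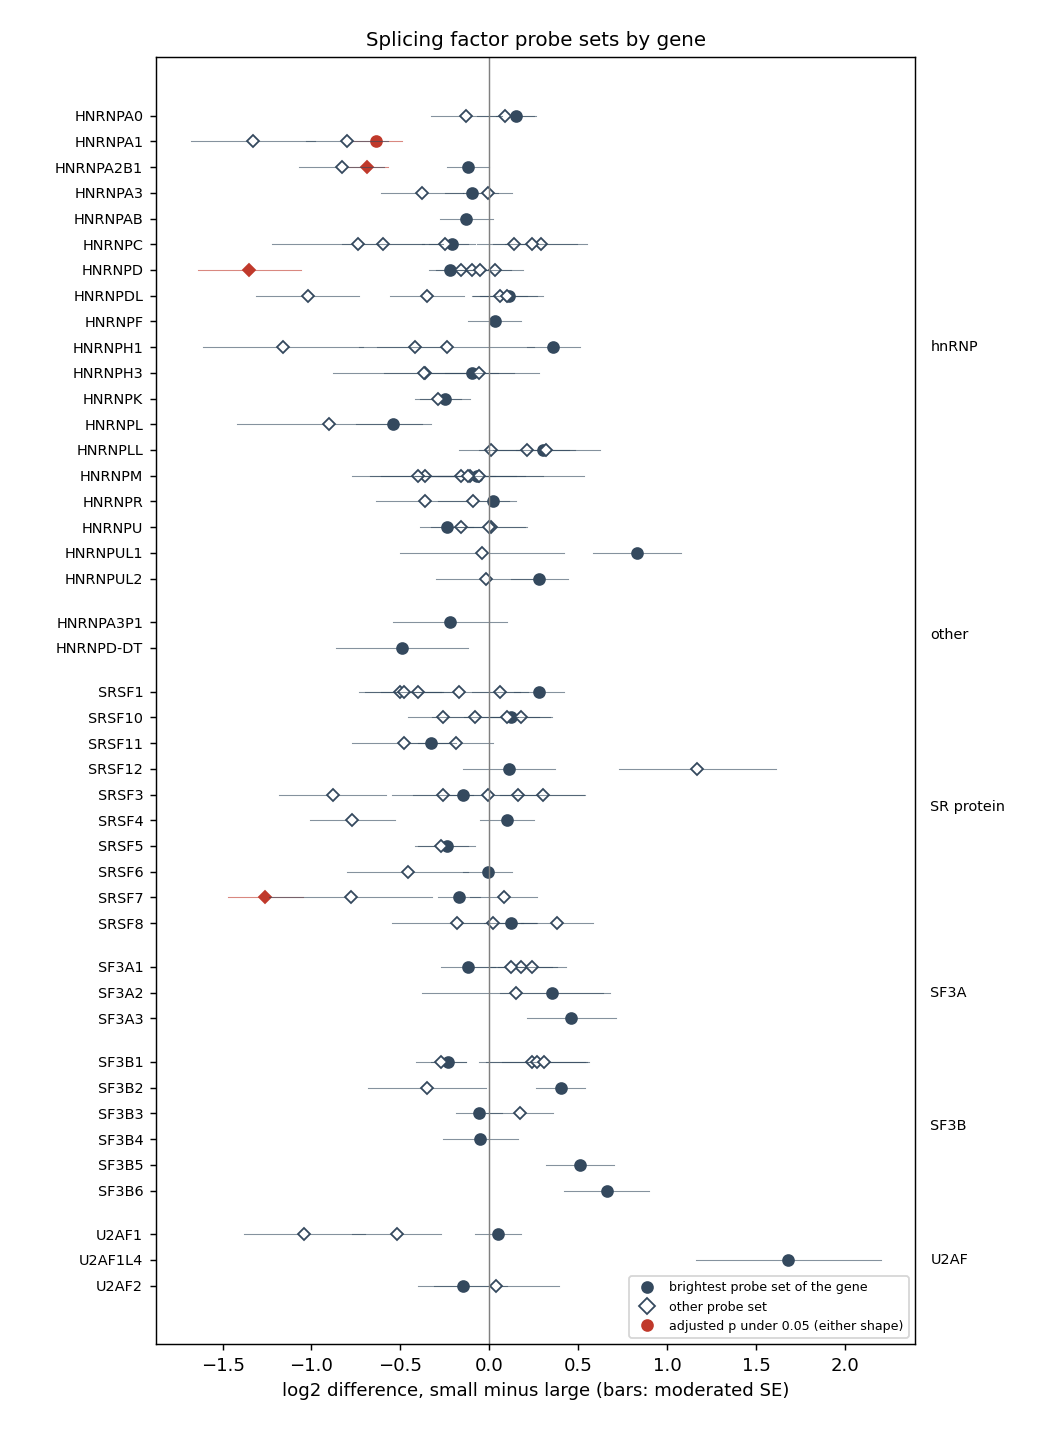
Each row is a gene and each symbol a tested probe set, placed by its log2 difference, small minus large, with bars for the moderated standard error (4 arrays per group). Circles are the brightest probe set of a gene and diamonds its other probe sets, and red marks the 4 probe sets called at an adjusted p under 0.05, all of them left of 0, the lowest at -1.35 for HNRNPD. The 2 rows marked other are HNRNPA3P1 and HNRNPD-DT.

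At an unadjusted p under 0.05, 26 of 129 probe sets (20.2%) differed, against a background of 15.3%. Of the members 19 (14.7%) were lower and 7 (5.43%) higher, while 8.53% of all tested probe sets were lower and 6.73% higher. The values of the 4 small and the 4 large arrays did not overlap for 9 members (6.98%), 6 lower and 3 higher, while the background was 9.34%, 5.46% lower and 3.89% higher. The count of members whose groups are apart is thus not above the background. The median log2 difference was -0.10 over the members and 0.02 over all tested probe sets, -0.12 relative to these. With the deposited scaling, median centring or scaling to the 75th percentile the relative median was -0.03.

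SRSF7 encodes an SR protein that also takes part in the export of messenger RNA. Its probe set 213649_at was at 6.19, 6.32, 5.98 and 6.94 (normalized log2 intensity) on small arrays 1 to 4, against 7.44, 7.77, 7.57 and 7.70 on large arrays 1 to 4. Every small value was below every large one. This is a log2 difference of -1.26 ± 0.21 SE, or 2.40-fold lower in small cells (4 arrays a group, limma adjusted p = 0.0162 over all probe sets). With the control 3 prime to 5 prime value in the model it was at -1.20 (adjusted p = 0.0352). With 1 array left out it ran from -1.46 to -1.12, and the call was lost without small array 1 or 2 (adjusted p = 0.0697 and 0.0565) or large array 2, 3 or 4 (0.0536, 0.0503 and 0.0649).

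The other probe sets of SRSF7 did not pass. The brightest, 214141_x_at, averaged 11.16 ± 0.18 on the small and 11.33 ± 0.17 on the large arrays (SD), a log2 difference of -0.17 ± 0.12 SE, and 201129_at differed by 0.08 ± 0.19. The dim 211439_at differed by -0.78 ± 0.46, with small array 1, at 3.40, far below the rest.

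HNRNPD, also called AUF1, binds AU-rich elements and influences how long messenger RNAs last. Its probe set 213359_at was at 5.55, 5.68, 6.85 and 6.83 on small arrays, against 7.33, 7.51, 7.65 and 7.82 on large arrays. The small values fell into a lower and a higher pair, all below the large values. The difference was -1.35 ± 0.29 SE (2.55-fold lower, adjusted p = 0.0393). The call was lost without small array 1 or 2 (adjusted p = 0.119 and 0.118), without large array 2, 3 or 4 (0.0974, 0.108 and 0.127) and with the 3 prime to 5 prime covariate (-1.38, adjusted p = 0.0638). The 5 other tested probe sets of HNRNPD had differences from -0.22 to 0.03, and the brightest, 221481_x_at, averaged 11.29 ± 0.23 on the small and 11.51 ± 0.11 on the large arrays (SD; -0.22 ± 0.12 SE).

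HNRNPA2B1 encodes the hnRNP proteins A2 and B1, which bind pre-mRNA and take part in RNA transport. Its probe set 225932_s_at was at 9.72, 10.07, 9.92 and 10.01 on small arrays, against 10.56, 10.54, 10.70 and 10.71 on large arrays. The groups were apart and each varied little. It was 1.62-fold lower in small cells (-0.69 ± 0.12 SE, adjusted p = 0.0169), and -0.66 with the covariate (adjusted p = 0.0366). With scaling to the 75th percentile it was at -0.52 and did not pass (adjusted p = 0.093), nor did it without small array 1 or large array 3 or 4 (adjusted p = 0.0712, 0.0566 and 0.0732). The probe set 225107_at was at 7.91, 7.72, 8.35 and 8.26 on small arrays, against 8.73, 8.21, 9.27 and 9.34 on large arrays (-0.83 ± 0.24, adjusted p = 0.115), and overlapped through large array 2. The brightest, 205292_s_at, had a difference of -0.12 ± 0.12, with means of 12.14 ± 0.15 on the small and 12.26 ± 0.23 on the large arrays (SD).

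HNRNPA1, a repressor of exon inclusion, had negative differences on all 3 of its probe sets, of which 1 passed. The brightest, 214280_x_at, was at 10.66, 10.64, 11.13 and 10.77 on small arrays, against 11.14, 11.34, 11.71 and 11.56 on large arrays. Small array 3 almost reached large array 1, but the groups did not overlap. The difference was -0.64 ± 0.15 SE (1.56-fold lower, adjusted p = 0.0494). It was -0.44 with scaling to the 75th percentile (adjusted p = 0.175) and -0.61 with the covariate (adjusted p = 0.09). The call was at the threshold and was also lost with cyclic loess (adjusted p = 0.0535), a pseudocount of 1 (0.0511), a robust fit (0.0526) or no filter (0.0924). With 1 array left out it kept its call only without small array 3 or large array 1, since adjusted p was 0.152, 0.143 and 0.101 without small array 1, 2 or 4 and 0.1, 0.144 and 0.149 without large array 2, 3 or 4. The probe set 222040_at was at 6.10, 6.70, 5.64 and 7.79 on small arrays, against 7.81, 8.05, 7.77 and 7.90 on large arrays (-1.33 ± 0.35, adjusted p = 0.0823), with small array 4 among the large values. The third, 221919_at, was at 6.55, 6.94, 6.22 and 6.86 on small arrays, against 7.04, 7.14, 7.85 and 7.73 on large arrays (-0.80 ± 0.23, adjusted p = 0.119). Its groups were apart, but neither probe set passed. HNRNPA1 has near-identical processed pseudogenes, and a probe set ending in _x_at can bind several transcripts, so its own level is uncertain.

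**Figure D2:**
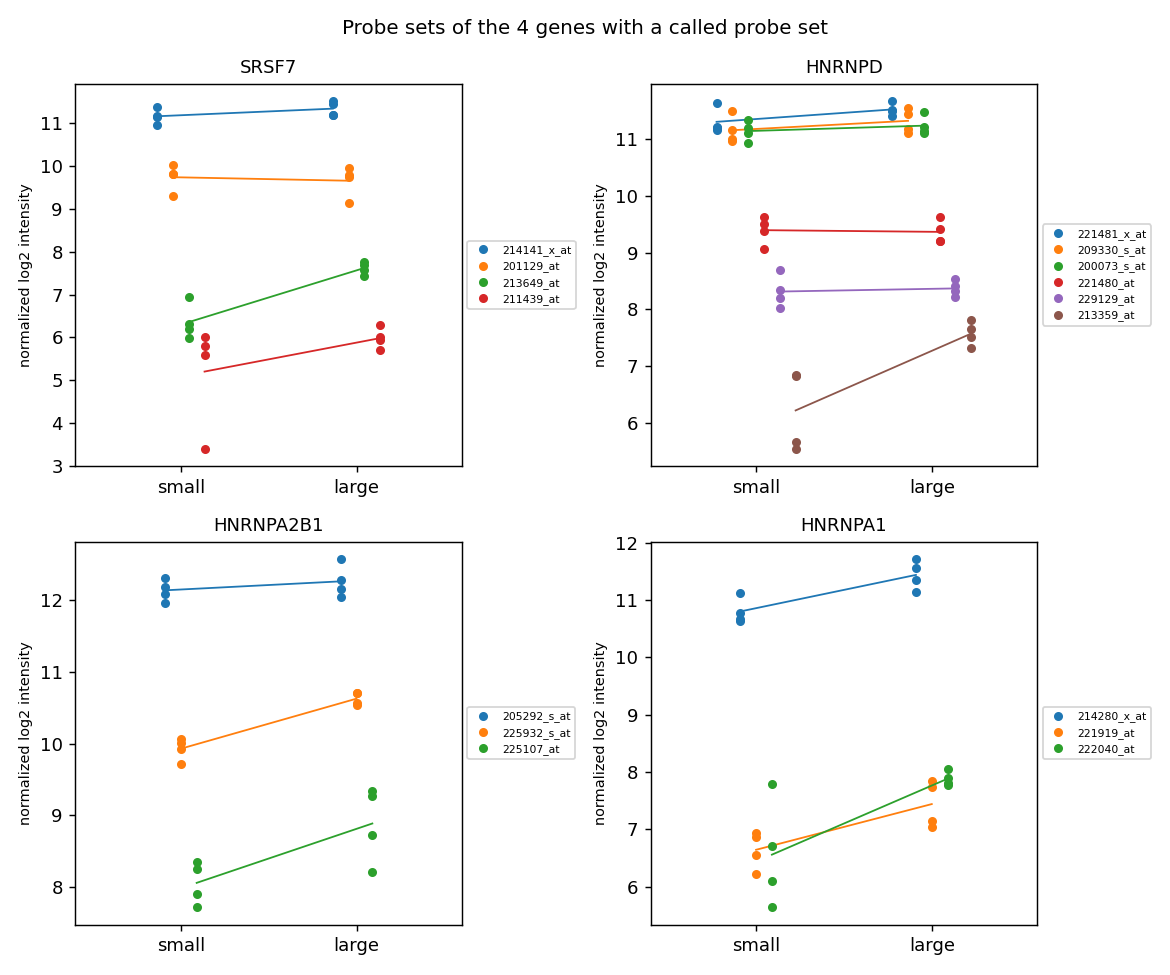
Normalized log2 intensity of every tested probe set of SRSF7, HNRNPD, HNRNPA2B1 and HNRNPA1, with 1 point per array, small left of large, and lines joining the group means. The points of 213649_at, 213359_at, 225932_s_at and 214280_x_at do not overlap between the groups, while those of the brightest probe sets of SRSF7, HNRNPD and HNRNPA2B1 do.

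Among the other hnRNPs no probe set passed. HNRNPDL, a paralogue of HNRNPD, had 212454_x_at at 8.60, 8.35, 7.16 and 8.94 on small arrays, against 9.41, 9.20, 9.17 and 9.33 on large arrays (-1.02 ± 0.29 SE, adjusted p = 0.109), with the small arrays lower and more spread. Its 4 other tested probe sets differed by -0.35 to 0.11. HNRNPUL1, an hnRNP U-like protein, had 208713_at at 9.50, 8.66, 9.36 and 8.83 on small arrays, against 8.66, 7.53, 8.32 and 8.51 on large arrays (0.83 ± 0.25, adjusted p = 0.126). It was the highest difference among hnRNP probe sets and small array 2 all but met large array 1. Its second probe set was at -0.04 ± 0.46.

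HNRNPH1, which binds G-rich sequences, had probe sets of both signs. The brightest, 213619_at, had a difference of 0.36 ± 0.15 SE, 201031_s_at of -0.42 ± 0.21 and 213472_at of -0.24 ± 0.49. The small mean of 213472_at, 3.55, is under the limit of 3.62, so this probe set was tested only through the large arrays. The dim 213470_s_at was at 5.58, 4.15, 3.25 and 3.62 on small arrays, against 4.57, 5.39, 5.64 and 5.63 on large arrays (-1.16 ± 0.45, adjusted p = 0.242), and the groups overlapped through small array 1 and large array 1. HNRNPC, which coats uridine-rich stretches of pre-mRNA, ran from -0.74 to 0.29 over 7 probe sets, with 235500_at at 5.46, 5.34, 5.75 and 5.21 on small arrays, against 5.71, 6.24, 5.85 and 6.36 on large arrays (-0.60 ± 0.23, adjusted p = 0.227). Its groups overlapped through small array 3 and large array 1. HNRNPL, a binder of CA repeats, had 35201_at at 9.03, 8.31, 8.24 and 8.89 on small arrays, against 9.02, 8.91, 9.59 and 9.08 on large arrays (-0.54 ± 0.21, adjusted p = 0.24). Small array 1 lay inside the large values, and the second probe set was at -0.90 ± 0.52.

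The remaining hnRNPs lay closer to 0. All 7 probe sets of HNRNPM were between -0.40 and -0.06, the 4 of HNRNPH3 between -0.37 and -0.06, the 4 of HNRNPU, a scaffold protein of the nucleus, between -0.24 and 0.01 and the 3 of HNRNPA3 between -0.38 and -0.01. HNRNPK, a binder of C-rich sequences, was at -0.29 and -0.25. HNRNPLL, which is known for regulating CD45 splicing in lymphocytes, had all 4 probe sets above 0, between 0.01 and 0.32. HNRNPA0, HNRNPAB, HNRNPF, HNRNPR and HNRNPUL2 were between -0.36 and 0.28. Over the 66 tested hnRNP probe sets 3 were lower and 0 higher, the median was -0.12, and 47 were below 0 and 19 above. HNRNPA3P1 was at -0.22 ± 0.32 and HNRNPD-DT at -0.49 ± 0.37, and neither passed.

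Of the 36 tested SR protein probe sets, 1 was lower (SRSF7) and 0 were higher, with a median of -0.16. SRSF3, the smallest of the classical SR proteins, had 232392_at at 4.88, 5.15, 5.15 and 6.06 on small arrays, against 5.74, 6.42, 5.86 and 6.74 on large arrays (-0.88 ± 0.30 SE, adjusted p = 0.176). Only small array 4 reached into the large values. Its 5 other tested probe sets differed by -0.26 to 0.30. SRSF4 had 242837_at at 5.28, 4.98, 4.97 and 5.75 on small arrays, against 6.03, 6.31, 5.66 and 6.05 on large arrays (-0.77 ± 0.24, adjusted p = 0.146), with small array 4 inside the large values, while its brightest probe set, 201696_at, was at 0.10 ± 0.15.

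SRSF1, the founding SR protein, had a difference of 0.28 ± 0.14 on its brightest probe set, 211784_s_at, and of -0.50 ± 0.23, -0.40 ± 0.21 and -0.48 ± 0.22 on 227164_at, 226419_s_at and 201742_x_at. Its 2 other probe sets were at 0.06 and -0.17, and none passed. SRSF11 was below 0 on all 3 of its tested probe sets, from -0.48 to -0.19, and SRSF5 on both, at -0.27 and -0.24. SRSF6 was at -0.46 and -0.01, SRSF10 between -0.26 and 0.18 and SRSF8 between -0.18 and 0.38. SRSF12 had 1552381_at at 4.79, 4.80, 4.04 and 3.89 on small arrays, against 3.34, 3.50, 2.50 and 3.52 on large arrays. All 4 large values lie under 3.62, the mean over all arrays above which a probe set was tested, so it was tested only through the small arrays and its separation supports nothing. It did not pass (1.17 ± 0.44, adjusted p = 0.227). Its brighter probe set was at 0.11 ± 0.26.

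Direct contrasts asked whether probe sets of 1 gene moved by different amounts. In each array the brightest tested probe set of a gene was subtracted from every other one, and the 11758 contrasts of all genes were fitted together. After adjustment 0 of the 86 contrasts within the 34 splicing factor genes with several tested probe sets passed (limma, smallest adjusted p = 0.312), and 0 of all 11758 did, a background of 0.0% (smallest adjusted p = 0.206). At an unadjusted p under 0.05, 14 of the 86 differed (16.3%), 13 of them lower and 1 higher relative to the brightest probe set in small cells. The higher one is SRSF12 1552381_at, which was tested only through the small arrays. Of all contrasts 9.63% differed, 4.82% lower and 4.81% higher. Contrasts of 1 gene share its brightest probe set, and the 14 come from 10 genes.

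The contrast with the smallest p was that of SRSF7, 213649_at minus 214141_x_at. It was -4.94, -4.83, -4.97 and -4.44 on small arrays, against -3.75, -3.41, -3.93 and -3.75 on large arrays. The groups were apart, with a difference of -1.09 ± 0.23 SE (adjusted p = 0.312). For HNRNPD, 213359_at minus 221481_x_at differed by -1.14 ± 0.32 (adjusted p = 0.394), and for HNRNPDL, 212454_x_at minus 201993_x_at by -1.13 ± 0.38 (adjusted p = 0.424). Both contrasts also had groups that did not overlap. So did 6 of the 86 splicing factor contrasts in all, against 665 of all 11758 contrasts (5.66%). The contrasts named here were chosen for the smallest p, so their separation adds no support. That probe sets of these genes move apart therefore did not pass a test across the array, although a probe set of SRSF7, HNRNPD and HNRNPA2B1 passed on its own where the brightest did not.

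**Figure D3:**
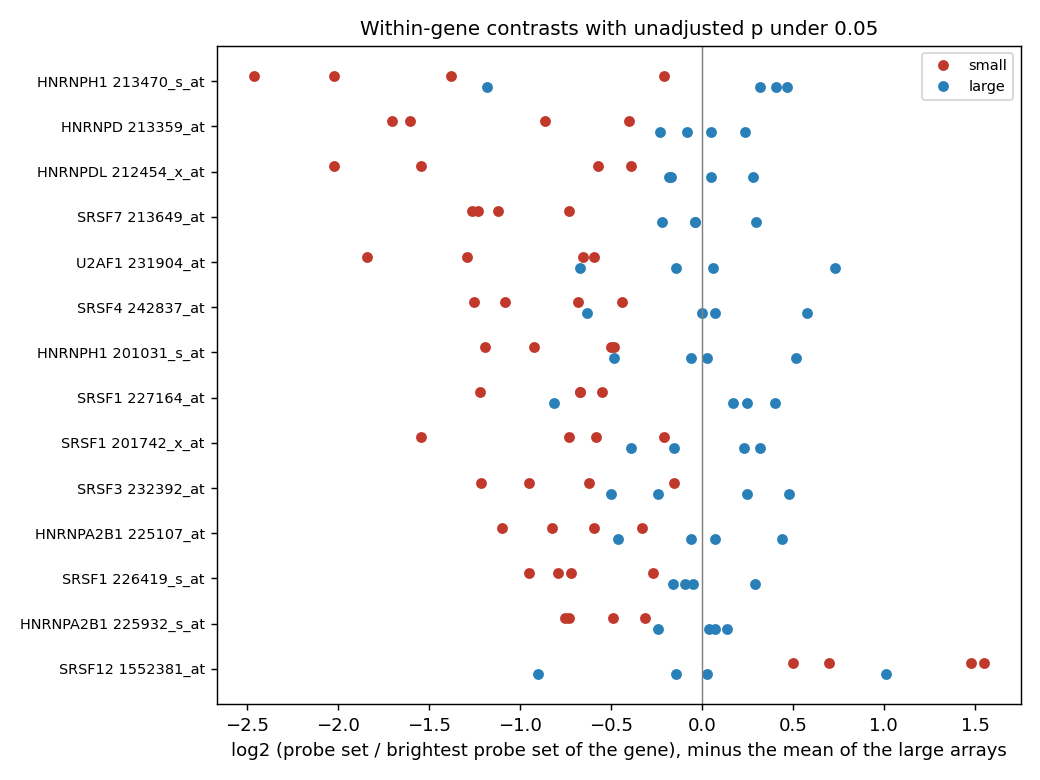
Log2 ratio of a probe set to the brightest probe set of its gene on each of the 8 arrays, centred on the mean of the large arrays, for the 14 splicing factor contrasts with an unadjusted p under 0.05, small above large in each row. For 13 contrasts the small arrays lie to the left on average, and for SRSF12 to the right; none passed after adjustment.

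Over the 43 brightest probe sets, 1 per gene, 1 was lower at an adjusted p under 0.05 over 14726 genes, HNRNPA1 (adjusted p = 0.041), and 0 were higher. Of all genes 1.99% passed, 1.69% lower and 0.299% higher. The members' median difference was -0.05, while that of all genes was 0.05. The 86 other tested probe sets had a median of -0.14, and such other probe sets of all genes had a median of 0.03. Relative to all tested probe sets the brightest were at -0.08 and the others at -0.17 in this normalization. With the deposited scaling, median centring or scaling to the 75th percentile the brightest changed sign to 0.05, while the others stayed negative at -0.11. The brightest also changed sign once _x_at and _s_at probe sets were dropped (0.12) and without large array 3 (0.01).

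By annotation, 27 tested members are listed with a RefSeq transcript and had a median of -0.13 with 0 called, 78 with another sequence record and a median of -0.08 with 2 called, and 24 with no record and a median of -0.09 with 2 called. Medians over all tested probe sets of these 3 kinds were 0.06, 0.03 and -0.03. Of the 34 genes with several tested probe sets, 21 had differences of both signs, 10 were negative throughout and 3 positive throughout. The 10 include HNRNPA1, HNRNPA2B1, HNRNPM and SRSF11, though HNRNPM 234035_at was tested only through the large arrays. The 17 untested probe sets had mean levels between 1.81 and 3.55, below the limit of 3.62.

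SF3A and SF3B proteins form the 2 parts of the SF3 complex. Of 19 tested probe sets 0 passed, 13 were above 0 and 6 below, with medians of 0.18 for SF3A and 0.20 for SF3B. Relative to all tested probe sets SF3B was at 0.18, and at 0.01 without large array 3 or 4. SF3B6, the subunit that contacts the branch point adenosine, was at 10.20, 9.50, 10.27 and 9.78 on small arrays, against 9.57, 8.57, 9.21 and 9.76 on large arrays (0.66 ± 0.24 SE, adjusted p = 0.209). Small array 2 lay inside the large values. SF3B5, a small structural subunit, was at 9.79, 9.46, 9.09 and 9.73 on small arrays, against 9.17, 9.35, 8.58 and 8.92 on large arrays (0.51 ± 0.19, adjusted p = 0.225), with small array 3 inside the large values. SF3B2 was at 9.47, 9.48, 9.64 and 9.20 on small arrays, against 9.22, 8.88, 9.11 and 8.97 on large arrays (0.40 ± 0.14, adjusted p = 0.191), and only small array 4 was within the large values. Its dim second probe set, 1558230_at, was at -0.35 ± 0.33.

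SF3B1, the largest subunit of SF3B and a frequent target of mutation in blood cancers, split by probe set. The brightest, 211185_s_at and 201071_x_at, were at -0.23 ± 0.10 and -0.27 ± 0.14, and the 3 others between 0.24 and 0.31. SF3B3 was at -0.06 and 0.17 and SF3B4 at -0.05 ± 0.21. In SF3A, SF3A3 was at 9.08, 9.34, 9.18 and 8.92 on small arrays, against 9.15, 7.88, 9.19 and 8.47 on large arrays (0.46 ± 0.25, adjusted p = 0.407), so the difference lies in large arrays 2 and 4. SF3A1 was between -0.12 and 0.24 on 4 probe sets, and 227516_at was at 7.21, 7.89, 7.90 and 7.56 on small arrays, against 7.34, 7.58, 7.20 and 7.48 on large arrays (0.24 ± 0.19, adjusted p = 0.602). These groups overlapped, and SF3A2 was at 0.35 and 0.15.

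U2AF1, the small U2AF subunit, had a difference of 0.05 ± 0.13 SE on its brightest probe set, 202858_at, with means of 10.67 ± 0.22 on the small and 10.62 ± 0.13 on the large arrays (SD). Its dim probe set 231904_at was at 5.11, 5.25, 4.32 and 4.40 on small arrays, against 6.02, 6.61, 5.11 and 5.50 on large arrays (-1.04 ± 0.34, adjusted p = 0.157). The groups overlapped through large array 3, and its other dim probe set, 232141_at, was at -0.52 ± 0.25. U2AF1L4, a paralogue of U2AF1, was read by 226700_at, with 5.28, 5.15, 4.58 and 5.33 on small arrays, against 2.03, 3.99, 4.75 and 2.84 on large arrays (1.68 ± 0.52, adjusted p = 0.136). The large mean of 3.40 is under the limit of 3.62, so this probe set too was tested only through the small arrays. Large array 3 was above small array 3, and the large values spread over more than the difference itself. U2AF2, the large subunit, was at -0.15 ± 0.25 and 0.04 ± 0.35.

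**Figure D4:**
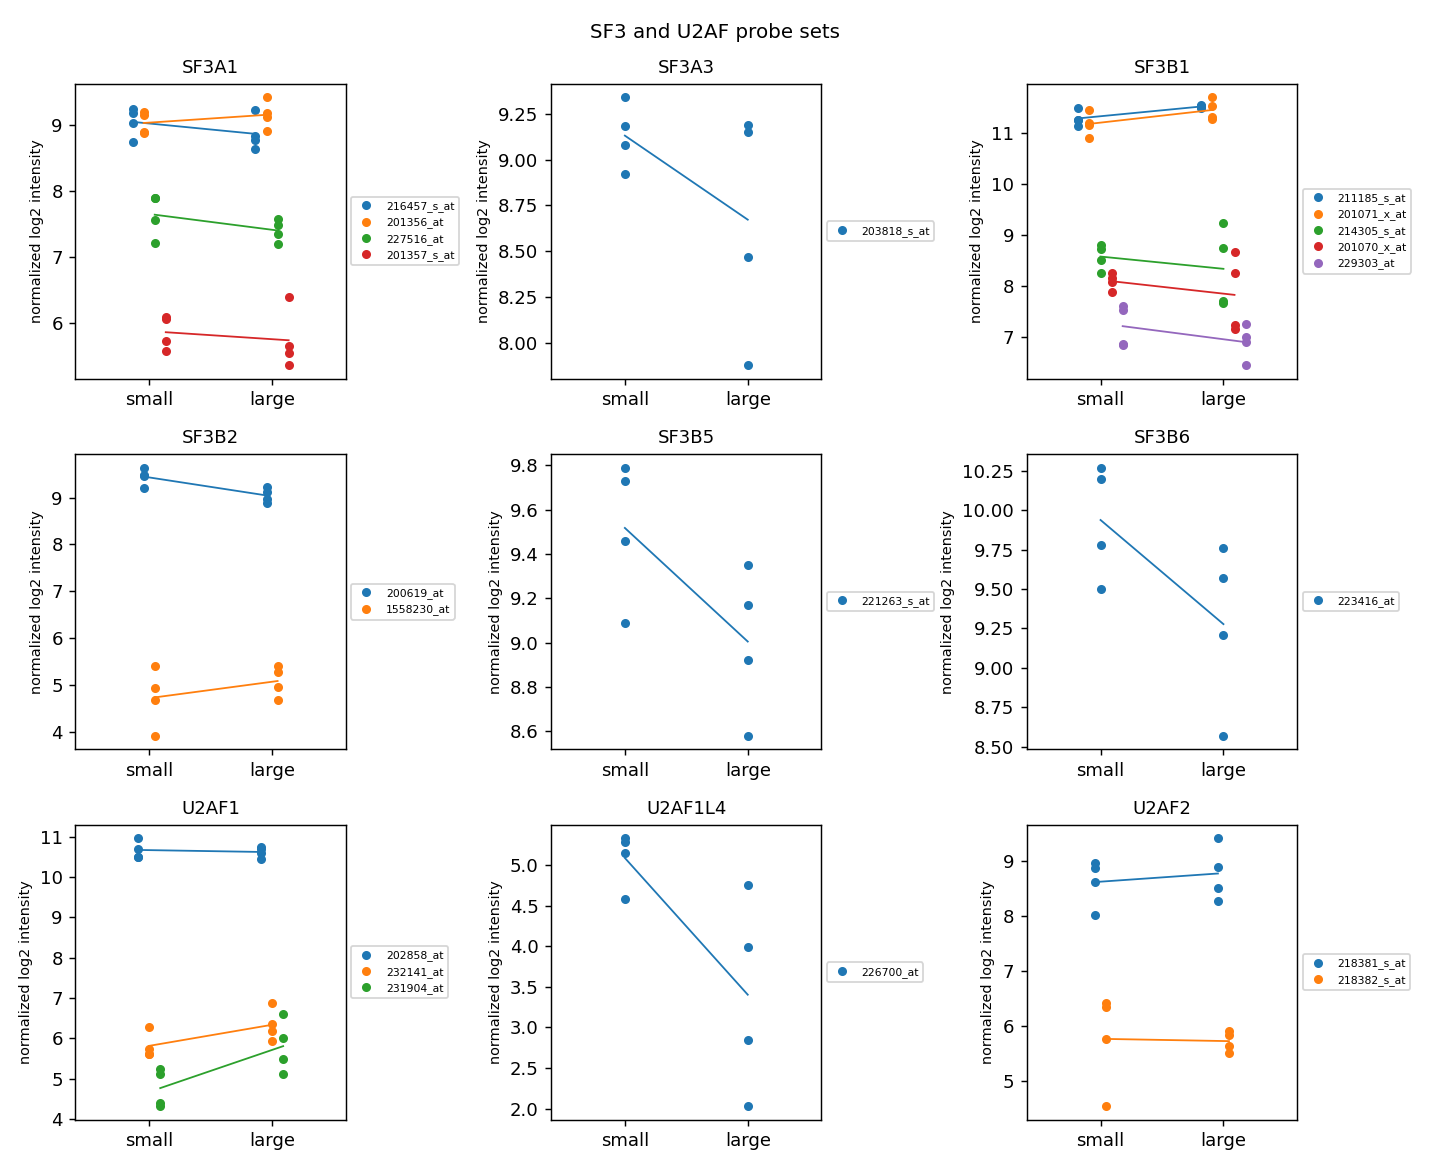
Normalized log2 intensity of the tested probe sets of 9 SF3 and U2AF genes, 1 point per array, small left of large, with lines between group means; each panel has its own axis range. The brightest U2AF1 probe set stays at 10.67 in small and 10.62 in large cells, while U2AF1L4 spans 2.03 to 4.75 on the large arrays.

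Other genes of splicing and messenger RNA maturation were read from 7 lists of 130 genes, of which 111 were tested by their brightest probe set. At an adjusted p under 0.05, 1 was lower, PNISR, and 0 were higher, against 1.69% and 0.299% of all genes. PNISR, an arginine- and serine-rich nuclear protein that was earlier named SFRS18, was at 9.28, 9.22, 9.41 and 9.56 on small arrays, against 10.22, 9.66, 10.18 and 9.95 on large arrays (-0.63 ± 0.15 SE, adjusted p = 0.0483). The groups were apart. With 1 array left out, a lower gene was called in these lists only without large array 2. PNISR is outside the splicing factor symbols above because the annotation gives the newer name.

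In the list of tri-snRNP and catalytic core proteins 0 of 21 passed, and the median was 0.14, against 0.05 for all genes. At an unadjusted p under 0.05, 6 of the 21 were higher and 0 lower, against a background of 8.51% and 8.0%. Over the 111 tested genes of all 7 lists, these included, 11 were higher and 4 lower. BUD31, a protein of the catalytic spliceosome, was at 8.49, 9.23, 8.69 and 8.69 on small arrays, against 8.45, 7.98, 7.84 and 8.25 on large arrays (0.64 ± 0.19, adjusted p = 0.106). Alternative splicing regulators showed a median of -0.05 and 0 of 31 passed, and TIA1, which activates weak splice sites, was at -0.38 ± 0.12 (adjusted p = 0.149). The kinases and importins of SR proteins showed a median of 0.06 and 0 of 10 passed, and SRPK2, a kinase of their serine residues, was at 0.42 ± 0.16 (adjusted p = 0.208). The SR-related and exon junction list had a median of 0.02, with PNISR as its called gene of 17. Branch point and helicase genes showed a median of -0.06, 0 of 13 passed, and DHX15, which takes the spliceosome apart, was at -0.23 ± 0.11 (adjusted p = 0.318). Export and speckle genes showed a median of 0.00, 0 of 13 passed, and THOC7, of the TREX export complex, was at 0.44 ± 0.14 (adjusted p = 0.144). For nonsense-mediated decay, which removes transcripts with premature stop codons, the median was -0.02, 0 of 6 passed, and SMG8 was at -0.27 ± 0.16 (adjusted p = 0.452).

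**Figure D5:**
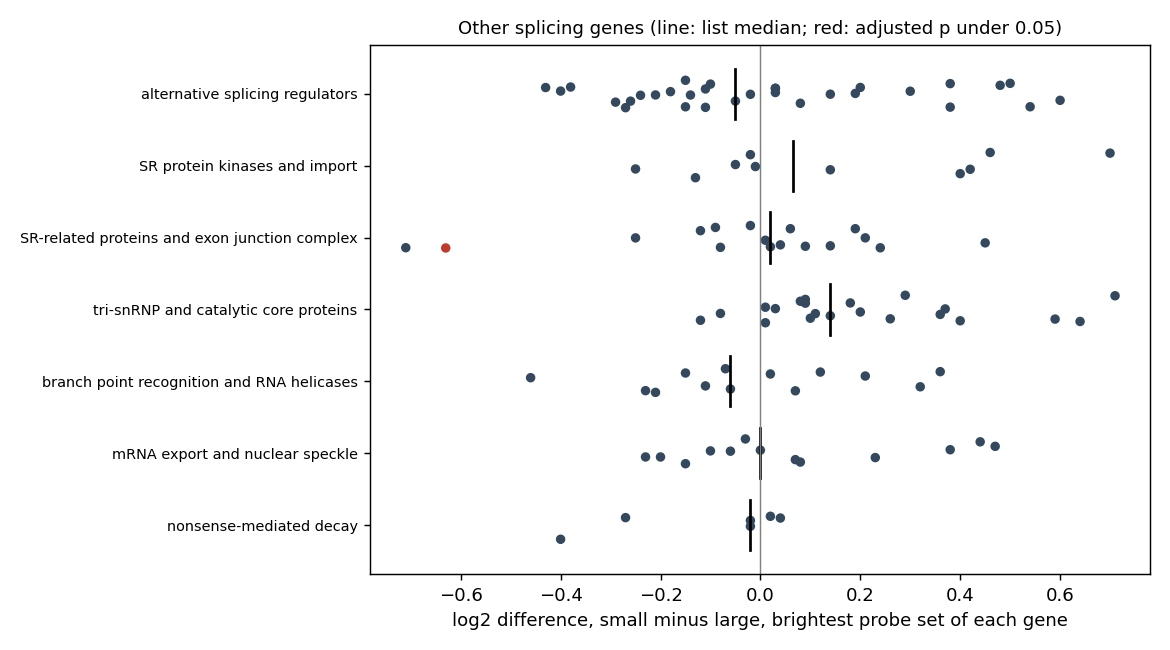
Log2 difference, small minus large, of the brightest probe set of each tested gene in 7 lists of splicing and messenger RNA maturation genes, 1 point per gene, with a vertical line at the list median. The red point is PNISR at -0.63, and the list medians lie between -0.06 and 0.14.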

How the data were processed

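The deposited table holds 1 linear intensity per probe set and array. Per the series design text the authors read the scans with GeneChip Operating Software and imported them into Rosetta Resolver. The sources used here name neither the program that wrote the intensities nor its background correction. From these, log2(intensity + 1.81) was taken (the 10th percentile as pseudocount, which understates folds of dim probe sets), followed by quantile normalization. Controls (62) were left out, and probe sets with a mean above the 40th percentile (3.62) were tested. Symbols came from the platform annotation, updated by gene ID (41043 of 41097 matched).

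The test was limma 3.58.1 under R 4.3.3, small against large arrays (lmFit, eBayes with variance trend; without it for contrasts), two-sided, Benjamini-Hochberg over all features. Errors beside differences are moderated SEs with 4 arrays per group, whose number limits precision (median SE 0.28). Scripts were checked on simulated arrays with known changes. Of 100 planted changes of log2 1, 18 were called, and of 100 of log2 1.5, 50 were called. A probe set that did not pass may therefore still differ.

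Members and lists were chosen with earlier results of these data known. Probe sets given in full were the called ones, those with the smallest p up to 20, and the 2 with the smallest p per family; each list names its called genes (up to 3) or the gene with the smallest p.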

Additional observations from a re-analysis of the deposited data

How the results depend on the processing

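Most counts rest on few arrays and on the scaling. The 4 called splicing factor probe sets became 0 with the deposited scaling, median centring or no variance trend, 2 with scaling to the 75th percentile, with the 3 prime to 5 prime covariate or once _x_at and _s_at probe sets were dropped, 7 with array weights and 7 (6 lower, 1 higher) without large array 1 and small array 3. With 1 array left out the count ran from 0 to 5: leaving out small array 1, large array 3 or large array 4 gave 0, and leaving out small array 2 or large array 2 gave 1. The 1 called splicing factor gene became 0 with the deposited scaling, median centring, scaling to the 75th percentile, no filter, no variance trend, the covariate or no _x_at or _s_at probe sets, 3 without large array 1 and small array 3, and between 0 and 2 with 1 array left out. The 1 called gene of the other splicing lists became 0 with the deposited scaling, median centring, scaling to the 75th percentile, cyclic loess, no filter, no variance trend, a robust fit or the covariate, 2 with array weights, 4 without large array 1 and small array 3, and ran from 0 to 1 with 1 array left out. Called contrasts within splicing factor genes were 0 in every setting run. The median of the members relative to all tested probe sets, -0.12, was -0.03 with the deposited scaling, median centring or scaling to the 75th percentile, and ran from -0.16 to -0.06 with 1 array left out; all probe sets had medians of -0.09, 0.06 and 0.05 in these scalings. The causes were not tested. No difference of the 22 probe sets given in full changed sign in any setting run. They were chosen by their p in these same data, which favours a kept sign, so this says nothing about the other members. A replicate block raised the called probe sets to 11 (9 lower, 2 higher), the splicing factor genes to 3 and the other genes to 3. The labels do not say whether equal numbers pair sorts. Correlations of deviations from the group mean were 0.0968, 0.102, 0.206 and 0.0181 for equally numbered arrays. For unequally numbered arrays they ran from -0.154 to 0.0927. Small arrays 1, 2 and 3 each correlated highest with the large array of their number, while small array 4 did not. Whether sorts are paired was not tested. Over all tested probe sets 491 were called in the main setting, 1205 with the block, 1131 with array weights, 1148 without large array 1 and small array 3, 3 with the deposited scaling, median centring or no variance trend, 296 with the covariate, and between 49 and 788 with 1 array left out.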
